A study of Mus musculus with 62 samples.

Results

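Skeletal muscle is a tissue of muscle fibres, and a dissected muscle also holds some fat cells between the fibres and on its surface. The genes described here are 10 genes known from fat cells, Adipoq, Plin1, Plin4, Cfd, Lep, Retn, Cidec, Fabp4, Pparg and Car3, chosen by their symbols and read in 54 of the 62 libraries that come from mouse muscle. All 10 had a row in each of the 3 muscle tables, which held 29239, 21936 and 21039 genes, and 7 had a row in the table of the C2C12 cell line.

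The study asked what ChREBP, the glucose-responsive transcription factor encoded by Mlxipl, does in muscle. F/F mice carry a ChREBP allele with loxP sites around exon 8, and ChMKO mice carry in addition Cre driven by the MCK promoter, which is active in striated muscle. On chow, gastrocnemius (GC, mostly fast fibres) and soleus (SOL, rich in slow fibres) were taken from both genotypes, with 5 libraries per group. In a second set, GC came from F/F and ChMKO mice held in normoxia (Norm), in hypoxia at a simulated 5500 m for 2 weeks (Hypo), or on a high-fructose diet with 68% of calories from fructose for 3 months (HFrD), with 4 libraries per group. Another set held GC of C57BL/6J mice 14 days after an AAV9 vector with a CMV promoter that carried GFP (AAV-CON) or ChREBP (AAV-ChREBP), with 5 libraries per group. C2C12 mouse muscle cells on day 7 of differentiation, as 1 control line (CON) and 1 line with ChREBP overexpressed (OE), gave 4 libraries per group. Mice were males of 8 to 10 weeks unless the study stated otherwise.

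Values are FPKM, fragments scaled by transcript length and by the mapped fragments of the library. The depth recovered from the values was 16400000 to 19800000 reads on chow, 14473170 to 23460515 in the second set and 15600000 to 20200000 after virus. Mlxipl was lower in every ChMKO library than in any F/F library of the same second-set condition, with means of 3.298 and 8.63 in Norm, and it was 83.5 in AAV-ChREBP against 11.3 in AAV-CON. On chow it was 15.7 in ChMKO and 24.9 in F/F GC, and 38.4 and 53.4 in SOL. Because the deletion removes 1 exon, reads of the rest of the gene can remain.

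As background, a white fat cell stores triglyceride in a droplet coated by perilipin, encoded by Plin1, and kept large by Cidec. It secretes adiponectin (Adipoq), adipsin (Cfd), resistin (Retn) and leptin (Lep), the hormone that reports fat stores to the brain. Pparg encodes the nuclear receptor that drives fat cell formation. Fabp4, Plin4 and Car3 are also known outside fat cells: Fabp4, a fatty acid carrier, in capillary endothelium, Plin4, a droplet protein, in muscle, and Car3, carbonic anhydrase III, as an abundant enzyme of slow muscle fibres. Adipoq, Plin1, Cfd and Cidec are treated below as the defining markers.

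On GRCm38 the gene bodies lie at chr16:23146536-23157968 (Adipoq), chr7:79721164-79732903 (Plin1, minus strand), chr10:79890853-79892660 (Cfd), chr6:113424634-113435760 (Cidec, minus strand) and chr6:29060195-29073877 (Lep).

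The sequences before the start sites of 3 defining markers and of Lep are shown because these genes rose and fell together across libraries while Lep also moved apart from them. They are the 250 bases upstream of the RefSeq start, from RefSeq on GRCm38.p6, at chr16:23146286-23146535, chr7:79732777-79733026 (minus strand), chr10:79890603-79890852 and chr6:29059971-29060220, with matches to the searched motifs in capitals. The RefSeq start is the first base of the gene body given above for Adipoq and Cfd, but lies 127 bases inside it for Plin1 and 26 bases inside it for Lep.
Adipoq: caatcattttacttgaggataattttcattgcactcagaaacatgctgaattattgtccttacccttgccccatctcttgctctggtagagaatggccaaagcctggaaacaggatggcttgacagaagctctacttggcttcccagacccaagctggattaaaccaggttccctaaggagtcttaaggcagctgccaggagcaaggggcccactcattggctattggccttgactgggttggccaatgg
Plin1: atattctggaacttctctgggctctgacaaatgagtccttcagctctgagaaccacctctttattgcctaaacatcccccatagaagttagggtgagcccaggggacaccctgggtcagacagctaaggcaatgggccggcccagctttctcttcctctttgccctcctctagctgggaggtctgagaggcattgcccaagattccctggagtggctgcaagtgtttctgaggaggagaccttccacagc
Cfd: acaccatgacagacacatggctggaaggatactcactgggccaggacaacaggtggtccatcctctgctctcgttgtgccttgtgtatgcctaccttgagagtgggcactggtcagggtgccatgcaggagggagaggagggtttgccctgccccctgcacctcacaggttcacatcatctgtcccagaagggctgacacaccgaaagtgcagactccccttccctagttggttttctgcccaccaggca
Lep: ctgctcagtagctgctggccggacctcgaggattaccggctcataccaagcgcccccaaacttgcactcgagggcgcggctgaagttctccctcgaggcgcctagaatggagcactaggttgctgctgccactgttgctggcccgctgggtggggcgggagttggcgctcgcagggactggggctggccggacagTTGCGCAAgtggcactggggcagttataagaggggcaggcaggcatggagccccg
The motifs searched on both strands were the TATA box TATAAA, the nuclear receptor half-site AGGTCA, its repeat AGGTCANAGGTCA, which contains the half-site, the E-box CACGTG, the C/EBP palindrome TTGCGCAA, and the ChREBP motif ChoRE as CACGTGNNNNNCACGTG, which contains the E-box. The capitals in Lep mark TTGCGCAA, 55 to 48 bases before the RefSeq start. It was present in 0.16% of 32851 promoter windows of this length, against 12.37% for TATAAA, 14.02% for AGGTCA, 0.03% for the repeat, 6.02% for CACGTG and 0% for the ChoRE letters. No other match lay in these 4 windows. RefSeq windows were at hand for 8 of the 10 members.

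The first question was how these genes lie within the muscle libraries. In SOL of F/F mice on chow, Adipoq was 10.5, 27.6, 30.4, 27.6 and 3.44 FPKM in mice 57, 58, 69, 70 and 71, and Cfd was 59.3, 132, 127, 129 and 26.4 in the same order. The library of mouse 71 was lowest for both, and also for Plin1 (0.603), Cidec (2.00), Lep (0.155) and Retn (0.791). That library had the highest Fabp4, 582.5 FPKM, against 291.6 to 432 in the other four. It also had the highest Pecam1, an endothelial marker, 61.9 against 33.9 to 44.4 in the others. Fabp4 thus ran against the defining markers in this library and with the endothelial marker, and what part vessels had in it was not tested.

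**Figure D1:**
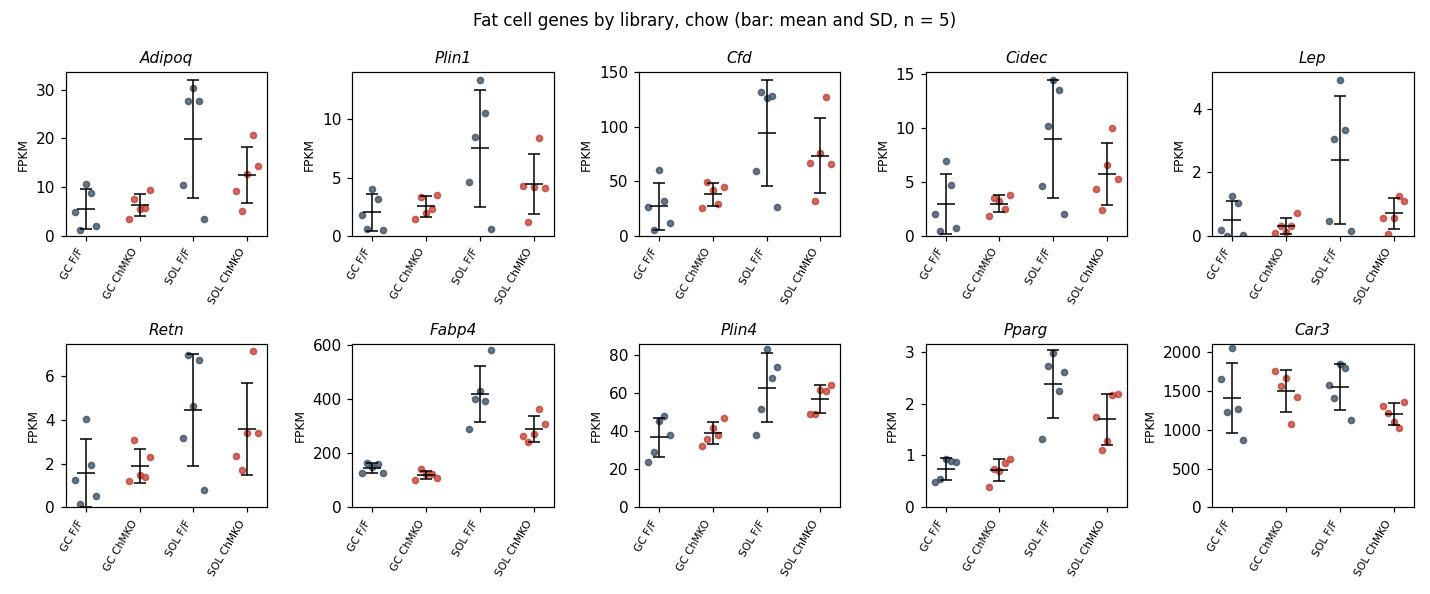
FPKM of the 10 genes in each chow library (points), with mean and SD as bars (n = 5 per group), in GC and SOL of F/F (blue) and ChMKO (red) mice; bars are cut at 0. Adipoq, Plin1, Cfd, Cidec, Lep and Retn spread widely within each group, and 1 SOL F/F library sits low in all 6 while it is the highest for Fabp4.

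The defining markers spread more than most genes in SOL F/F. There the coefficient of variation was 60.99% for Adipoq, 66.8% for Plin1, 84.7% for Lep and 18.9% for Car3, beside a median of 16.5% over all genes at a mean of at least 0.5 FPKM. Car3, the most abundant of the 10, was thus close to the median. The coefficient of variation of Fabp4 ran from 3.99% in Norm F/F, where 2.22% of genes varied less, to 30.1% in HFrD F/F, where 96.5% did, and it was 25.0% in SOL F/F.

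After each group's mean was taken out, the secreted and droplet genes followed one another. The correlation of log2 values with Adipoq across the 10 chow SOL libraries was 0.97 for Plin1, 0.98 for Cfd, 0.98 for Cidec, 0.95 for Lep and 0.95 for Retn. In the 24 libraries of the second set it was 0.95 for Plin1, 0.93 for Cfd, 0.93 for Cidec, 0.84 for Lep and 0.89 for Retn. Fabp4 did not share this pattern, with -0.05 in chow SOL and 0.14 in the second set, while its correlation with Pecam1 was 0.77 and 0.46. Plin4 stood at 0.23 and 0.34, Pparg at 0.42 and 0.58 and Car3 at 0.50 and 0.17. In chow GC, where Lep was too low, the correlation with Adipoq was 0.98 for Plin1, 0.94 for Cfd, 0.97 for Cidec and 0.94 for Retn, beside 0.58 for Plin4, 0.57 for Pparg, 0.47 for Car3 and 0.22 for Fabp4. After virus the order was less clear, with 0.91 for Plin1, 0.84 for Cidec, 0.83 for Cfd, 0.76 for Pparg, 0.67 for Retn, 0.09 for Fabp4, -0.10 for Car3 and -0.43 for Plin4. Fabp4 and Pecam1 were at 0.35 in chow GC and 0.12 after virus. In each of the 4 sets Plin1, Cfd and Cidec thus lay closer to Adipoq than Fabp4, Plin4, Pparg and Car3 did, while Retn did so in all but the virus set. These are descriptions over libraries that share a preparation, and no test was made.

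**Figure D2:**
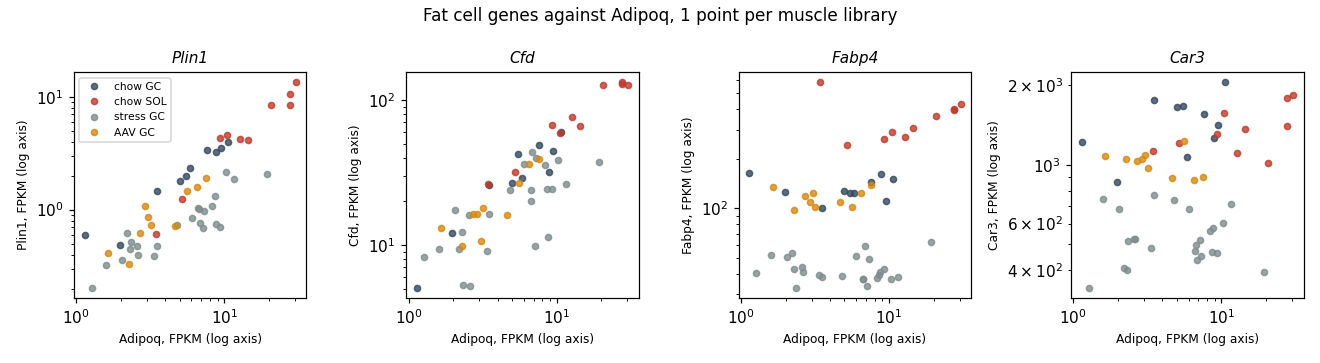
Plin1, Cfd, Fabp4 and Car3 against Adipoq, with 1 point per muscle library and both axes on a log scale, colored by experiment. Plin1 and Cfd climb with Adipoq within each set, whereas Fabp4 and Car3 lie at different levels in different experiments.

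Genes outside the 10 that followed the mean of the 4 defining markers most closely were, in chow SOL, Trf (r = 0.99), Hp (0.99), Scd1 (0.98), C4b (0.97) and A530016L24Rik (0.97). In chow GC they were Klhl8 (0.95), Nnat (0.94), Hp (0.93), Ftsj3 (0.91) and Slc7a10 (0.90), each over 10 libraries. Across the 24 libraries of the second set they were Prkar2b (0.89), Scd1 (0.87), Serpina3c (0.87), Glb1l2 (0.82) and Lgals12 (0.81). After virus they were Slc1a3 (0.92), Zfp81 (0.92), Mia3 (0.92), Pdcd10 (0.91) and Zfp846 (0.90), again over 10 libraries. The genes ranked numbered 12715 in chow GC, 13338 in chow SOL, 10708 in the second set and 11049 after virus. Among so many genes over 10 libraries, some correlations this high can arise by chance, and no test was made. Hp, which encodes haptoglobin, was the only gene among the leading 50 in all 4 sets, with 0.93, 0.99, 0.75 and 0.81.

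Loss of ChREBP from muscle fibres on chow was compared in SOL. No member passed the adjusted p in limma, where 3 of 13348 genes (0.0225%) did, nor the criterion of the study, a log2 fold change of at least 1 in size with an unadjusted p under 0.05, which 0.157% of genes passed. At an unadjusted p under 0.05 there were 2 of 10 members, Fabp4 and Car3, beside 9.74% of all genes. All 10 differences were negative, with a median log2 difference of -0.39 beside -0.02 over all genes, of which 42.4% had a positive difference. Adipoq, Plin1, Cfd, Cidec, Lep and Retn vary together, so the common sign of these 6 is not 6 separate observations.

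Fabp4 was 264, 242, 271, 365 and 308.7 FPKM in SOL of ChMKO mice 59, 60, 61, 72 and 74, against 291.6, 402, 432, 394 and 582.5 in F/F. The groups overlapped, and the difference was -0.51 on the log2 scale (SE 0.17, adjusted p = 0.416). Car3 was 1203 ± 142.4 (SD, n = 5) in ChMKO and 1550 ± 292.9 in F/F, a log2 difference of -0.35 (SE 0.14, adjusted p = 0.462 in limma). Lep was 0.0484 to 1.26 in ChMKO and 0.155 to 4.91 in F/F, with a log2 difference of -0.77 (SE 0.43, adjusted p = 0.551 in limma). Leptin RNA reached over 3 FPKM, a cut chosen after the values were seen, in 3 F/F libraries and in none of the ChMKO libraries. The lowest value of all was in ChMKO. Lep followed Adipoq across the chow SOL libraries (r = 0.95), so its values are not separate from those of Adipoq. Adipoq, at 12.5 ± 5.78 in ChMKO and 19.9 ± 12.1 in F/F, differed by -0.43 on the log2 scale, less than its SE of 0.53. The summed level of the 9 endothelial genes was 156 to 201 FPKM in ChMKO and 172 to 353 in F/F, and its part in the lower Fabp4 was not tested.

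In GC on chow, 9 members could be tested, Lep being too low in GC, and none passed the adjusted p (0.0236% of genes did) or the criterion of the study (0.165%). Fabp4 was the 1 member of 9 at an unadjusted p under 0.05, which 4.63% of genes reached, with a log2 difference of -0.27 (SE 0.11, adjusted p = 1.00 in limma). Its values were 100.5 to 143.5 in ChMKO and 126 to 163 in F/F. The 4 defining markers had positive differences in GC and negative ones in SOL, in GC with 0.41 for Adipoq (SE 0.44) and 0.83 for Cfd (SE 0.51), each at an adjusted p = 1.00 in limma. The difference between muscles in the genotype effect was tested directly, and no member passed the adjusted p in limma (0.00759% of all genes did) or had an unadjusted p under 0.05 (5.99%).

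The muscles themselves differed more than the genotypes. In F/F mice 5 members were higher in SOL than in GC at an adjusted p under 0.05, Adipoq, Plin4, Cfd, Fabp4 and Pparg, where 50.4% of genes were called in either direction and 37.9% as higher. By the criterion of the study 6 members were higher, beside 5.41% of genes in that direction and 7.99% in both. The median log2 difference over the members was 1.21 beside 0.18 over all genes. GC and SOL libraries carry the same numbers, which were read as mice. With the mouse as a block, 9 members passed in place of 5, beside 48.9% of all genes in that fit. The label of 1 SOL library leaves its mouse uncertain between 59 and 69, and without mouse 69 the blocked fit again gave 9.

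Fabp4 was 291.6 to 582.5 in SOL and 126 to 163 in GC of F/F mice, groups that did not overlap, as held in this direction for 26.3% of all genes, with a log2 difference of 1.497 (SE 0.16, adjusted p = 3.7e-05 in limma). Pparg was also separate, 1.31 to 2.97 against 0.497 to 0.932, with 0.93 (SE 0.15, adjusted p = 0.000398). Cfd differed by 1.93 (SE 0.62, adjusted p = 0.0227) and Adipoq by 1.65 (SE 0.615, adjusted p = 0.0437), and for both the groups overlapped, with SOL of mice 57 and 71 below the highest GC library. After the libraries were rescaled by their median ratio, neither Adipoq (adjusted p = 0.0746) nor Plin4 (0.0887) passed in limma. The exact permutation test gave p = 0.0635 for Adipoq and 0.0556 for Cfd, two-sided. Leaving out 1 library at a time ended the call of Adipoq in 6 of 10 cases (SOL of mice 58, 69 and 70 and GC of mice 57, 58 and 71, adjusted p = 0.0663 to 0.0992), of Cfd in 4 (the same SOL libraries and GC of mouse 71, 0.0529 to 0.0544) and of Plin4 in 1 (SOL of mouse 69, 0.0518), in limma. The calls of Fabp4 and Pparg held in all 10. Car3 did not follow, with 0.17 (SE 0.225).

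In ChMKO mice 6 members were higher in SOL, the same 5 and Cidec, where 57.9% of genes were called in either direction and 41% as higher, and 7.83% passed the criterion of the study. Fabp4 was 242 to 365 against 100.5 to 143.5, a log2 difference of 1.26 (SE 0.12, adjusted p = 4.49e-06 in limma). Adipoq (0.80, adjusted p = 0.0439), Cfd (0.85, 0.0325) and Cidec (0.67, 0.0477) lay close to the threshold, and with the mouse as a block 5 members passed beside 55.6% of all genes, Cfd and Cidec no longer among them and Car3 added with a lower level in SOL (-0.30, adjusted p = 0.0304). After rescaling, Adipoq (adjusted p = 0.105), Cfd (0.0851) and Cidec (0.115) did not pass in limma, and Car3 passed as lower (-0.49, adjusted p = 0.0062). Adipoq, Cfd and Cidec each lost the call without SOL of mouse 59, 61, 72 or 74 or GC of mouse 59 or 72. Adipoq and Cidec also lost it without GC of mouse 61, and Cidec without GC of mouse 60, with adjusted p = 0.0508 to 0.105 in limma over these cases. Fabp4, Plin4 and Pparg kept it in all 10. Car3 was thus the 1 member with a lower mean in SOL, and that in ChMKO mice.

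Other lists differed in how far they moved between the muscles, beside 37.9% of all genes called higher and 12.5% lower. Of 9 further fat cell markers tested in F/F, 6 were higher and 1 lower in SOL, among them Npr3 (1.99) and Adig (1.42) higher and Gpr146 (-0.50) lower. Of 18 genes of fat uptake and triglyceride synthesis 10 were higher and 2 lower, with Dgat2 at 2.75, Lpl at 2.65 and Gpd1 at -2.92. Of 12 adipogenic transcription factors 4 were higher and 3 lower, of 10 adipokines and their receptors 2 were higher and 2 lower, and none of 6 macrophage and leukocyte genes was called. All 8 endothelial genes tested were higher, as were all 5 red blood cell genes (median 1.37), all 4 brown fat genes tested and 3 of 4 smooth muscle genes. Ucp1 had no value on chow, so the brown fat list does not show brown fat in SOL. All 8 slow fibre genes were higher too, with Myh7 at 1757 to 2267 FPKM in SOL and 0.202 to 37.6 in GC. The part of vessels, blood and fibre type in the higher members was not tested. Fewer fat cells and less of an RNA per fat cell cannot be told apart in such bulk libraries.

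In GC of the second set the genotypes were compared within each condition. No member passed the adjusted p in Norm (0.00922% of genes), Hypo (0.00941%) or HFrD (0.019% under both rules), nor the criterion of the study in Norm (0.608%) or Hypo (0.0565%). At an unadjusted p under 0.05 there was no member in Norm, where 11.1% of genes were. There were 2 of 9 in Hypo, Retn and Fabp4, beside 5.27% of genes, and 1 of 10 on HFrD, Pparg, beside 7.36%. In Norm, Lep was 2.14, 1.41, 2.23 and 0.101 in F/F and 0.361, 0.454, 1.12 and 0.206 in ChMKO. The low F/F library was also the lowest of its group for Adipoq, at 1.27 against 8.62 to 11.6 in the other 3 libraries.

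Hypoxia was compared with normoxia in each genotype, and Lep had lower means in Hypo in both. Lep was 0.0157, 0.206, 0.165 and 0.0768 FPKM in Hypo F/F, against 2.14, 1.41, 2.23 and 0.101 in Norm F/F. 3 Norm libraries stood above every Hypo library, and the fourth lay within the Hypo range. The difference of Lep was -1.03 on the log2(FPKM + 1) scale (SE 0.31), which understates the change of a gene this low, with an unadjusted p = 0.00923 and adjusted p = 1.00 in limma. Lep was tested in F/F only because its Norm mean was high, at 1.47 FPKM against 0.116 in Hypo and a minimum of 0.5 over both groups, whereas in ChMKO, with a Norm mean of 0.535, it was not tested. That it met the criterion of the study in F/F is therefore no support for a lower level, nor for a difference between genotypes. That criterion was passed by 0.168% of genes and by 0.0745% as lower, and no gene passed the adjusted p (0%). The exact permutation test of Lep gave p = 0.0857, two-sided. Without that low Norm library the difference was -1.38 with an adjusted p = 0.0495 in limma, where 0.00934% of genes passed. This adjusted p was the lowest over the alternatives tried, where it otherwise ran from 0.36 to 1.00. The library left out was the 1 Norm library within the Hypo range. Lep was again tested only through its Norm mean, so this p is no support either.

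In ChMKO mice Lep was 0.0684, 0.307, 0.184 and 0.0481 in Hypo and 0.361, 0.454, 1.12 and 0.206 in Norm, too low for the fit, and only 1 Norm library lay within the Hypo range. The recovered reads of Lep were 1 to 14 per library in Hypo F/F and 3 to 15 in Hypo ChMKO, against 5 to 138 and 10 to 65 in Norm. Adipoq in ChMKO was at 5.44 ± 2.62 (SD, n = 4) in Hypo and 4.87 ± 3.10 in Norm, and was 3.23 ± 1.22 against 7.93 ± 4.60 in F/F (log2 difference -0.86, SE 0.51).

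Pparg, Fabp4 and Plin4, 3 of 9 members tested, had an unadjusted p under 0.05 in Hypo ChMKO with higher means, beside 15.1% of all genes in either direction, and no member passed the adjusted p, which 0.89% of genes did, or the criterion of the study, which 1% did. Pparg was 1.55 to 2.51 in Hypo and 1.15 to 1.49 in Norm, without overlap, as held in this direction for 3.24% of genes, at a log2 difference of 0.36 (SE 0.11, adjusted p = 0.159 in limma). Red blood cell genes had a median log2 difference of 0.90 over the 5 tested, none past the adjusted p. Of the genotype by hypoxia differences none passed in limma for any member or gene (0%), and 0 members had an unadjusted p under 0.05 (1.23% of genes).

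**Figure D3:**
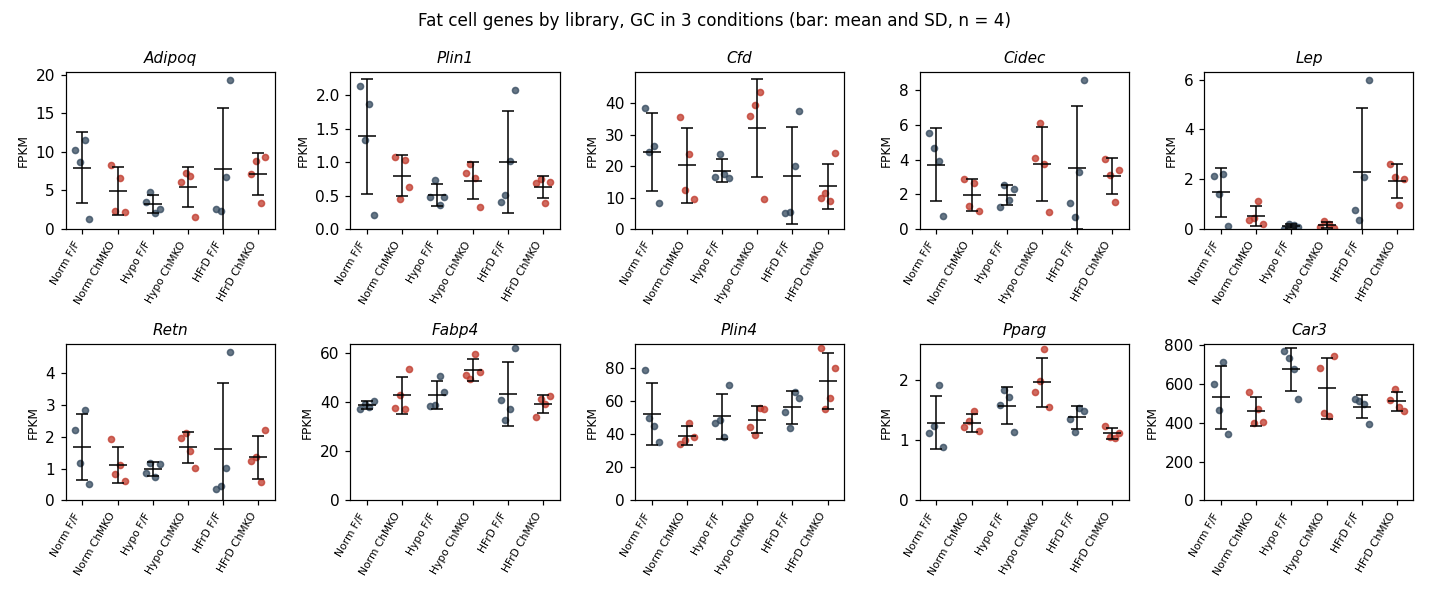
FPKM of the 10 genes in GC of each library (points), with mean and SD as bars (n = 4 per group), in Norm, Hypo and HFrD of F/F (blue) and ChMKO (red) mice; bars are cut at 0. Lep is near 0 in both Hypo groups, while Adipoq and Cfd are not.

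The high-fructose diet was compared with normoxia in the same way. The Norm groups are the reference of the 2-week hypoxia, while the diet lasted 3 months, so diet, age and differences between the experiments cannot be told apart here. In F/F mice no member passed either rule, where 0% and 0.42% of genes did, and none had an unadjusted p under 0.05, which 23.6% of genes had. Lep was 0.754, 0.369, 2.095 and 5.99 in HFrD F/F, the last library being the highest for Adipoq as well (19.3 against 2.35 to 6.71).

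In ChMKO mice 2 members were higher on HFrD, Lep and Plin4, where 64% of genes were called in either direction, 19.4% as higher, and 5.06% passed the criterion of the study, which neither member did. Lep was 2.596, 2.09, 0.970 and 2.02 in HFrD ChMKO and 0.361, 0.454, 1.12 and 0.206 in Norm ChMKO. All but 1 HFrD library exceeded every Norm library, and the log2 difference was 0.93 (SE 0.21, adjusted p = 0.00411 in limma), with p = 0.0571 in the two-sided exact permutation test. Plin4 was 92.0, 55.3, 61.8 and 80.4 against 34.2, 36.9, 47.2 and 38.6, without overlap, as held in this direction for 18% of genes, at 0.85 (SE 0.16, adjusted p = 0.00138 in limma). The median over all genes was -0.17 in this comparison, and both members remained higher when libraries were rescaled, with 1.03 for Lep and 1.05 for Plin4. Adipoq was 7.14 ± 2.68 and 4.87 ± 3.10 (0.56, SE 0.40). The difference between genotypes in the response to the diet was not past the adjusted p for any member, and no gene passed it (0%). In limma the unadjusted p was 0.0346 for Plin4, the 1 member of 10 under 0.05, beside 10.3% of all genes.

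Other lists were read against the 44.6% of all genes called lower in this comparison. Of the 12 droplet and lipolysis genes tested in HFrD ChMKO, 7 were lower and none higher, including Fitm1 (-0.77) and Plin3 (-0.61). Of 12 adipogenic transcription factors 6 were lower and 2 higher, Srebf1 at -1.16 and Klf15 at 0.91. Both counts lie near the share over all genes. All 9 endothelial genes, all 5 red blood cell genes and 4 of 5 tendon genes were lower as well, with medians of -0.66, -1.20 and -1.51, and their part in the members' values was not tested.

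Within a library, each secreted or droplet gene can be set against Adipoq, which takes out how much fat cell RNA the piece of muscle held only as far as Adipoq itself is stable. These ratios were chosen after the values had been seen and carry no test. The share of all genes whose ratios to Adipoq separate in the same way was not computed. A lack of overlap below is therefore no result about these genes. Lep over Adipoq was 0.161 ± 0.0578 (SD, n = 4) in Norm F/F and 0.126 ± 0.0703 in Norm ChMKO. It was 0.0394 ± 0.0317 and 0.0276 ± 0.0126 in Hypo, and 0.267 ± 0.074 and 0.277 ± 0.0648 on HFrD. The same order, Hypo below Norm below HFrD, held for the means of both genotypes. In ChMKO the ranges did not overlap, at 0.0114 to 0.0420, 0.0433 to 0.198 and 0.217 to 0.363. The highest Hypo and the lowest Norm ratio there, 0.0420 and 0.0433, rest on 15 and 22 reads of Lep. In F/F the Norm range, 0.0792 to 0.209, overlapped both Hypo (0.00448 to 0.0806) and HFrD (0.157 to 0.312), and the Hypo ratios rest on few reads of Lep, as given above.

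Cfd over Adipoq had the reverse order of means. It was 3.84 ± 1.88 and 4.38 ± 0.747 in Norm, 6.13 ± 1.77 and 5.91 ± 0.392 in Hypo, and 2.29 ± 0.481 and 1.99 ± 0.756 on HFrD, for F/F and ChMKO. In ChMKO the 4 HFrD libraries lay between 1.298 and 2.68, below the 4 Norm libraries at 3.59 to 5.39, and the Hypo libraries lay above both, at 5.41 to 6.36. In F/F the Norm libraries, at 2.27 to 6.51, overlapped both HFrD (1.94 to 2.98) and Hypo (4.67 to 8.56). Plin1 over Adipoq was 0.0931 ± 0.0174 in HFrD ChMKO and 0.191 ± 0.0675 in Norm ChMKO, ranges that did not overlap. In F/F it was 0.158 ± 0.0460 on HFrD and 0.171 ± 0.0254 in Norm, with overlap. Retn over Adipoq had the same order of means as Cfd, with 0.325 and 0.371 in Hypo, 0.250 and 0.260 in Norm and 0.183 and 0.187 on HFrD, for F/F and ChMKO. Cidec over Adipoq was 0.649 and 0.667 in Hypo against 0.499 and 0.450 in Norm. Both overlapped between Norm and HFrD in both genotypes. The order was thus not particular to Cfd, and what part Adipoq, the shared denominator, had in it was not tested.

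**Figure D4:**
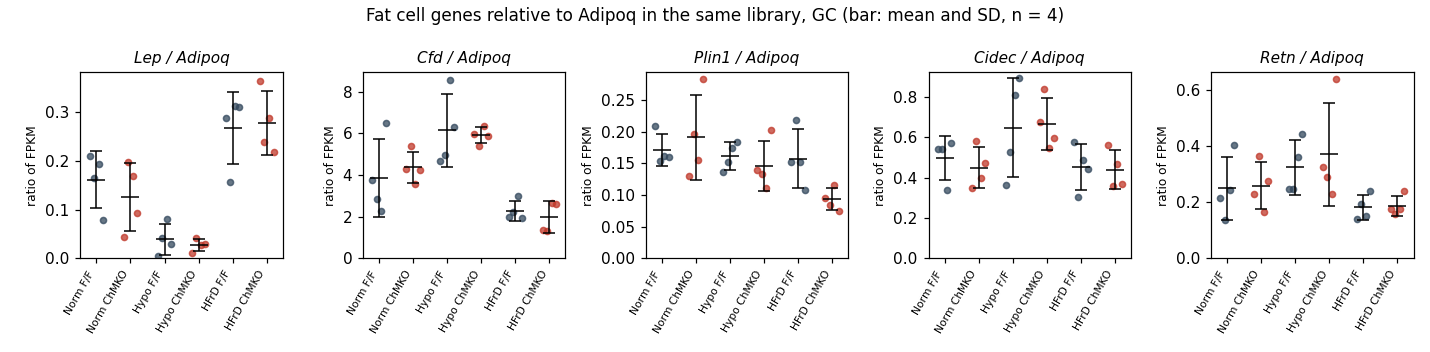
Ratio of the FPKM of Lep, Cfd, Plin1, Cidec and Retn to that of Adipoq in the same GC library (points), with mean and SD as bars (n = 4 per group); bars are cut at 0. Lep over Adipoq is lowest in both Hypo groups and Cfd over Adipoq is lowest in both HFrD groups.

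Raised ChREBP in GC was examined with the virus. No member passed the adjusted p (0.00904% of genes) or the criterion of the study (0.0181%), with 2 of 9 at an unadjusted p under 0.05, Car3 and Cidec, beside 2.91% of genes. Car3 was 1050, 1091, 1227, 1079 and 1053 in AAV-CON and 880, 889, 973, 896.5 and 1036 in AAV-ChREBP. The groups did not overlap, which held as lower for 0.0904% of genes, and the log2 difference was -0.24 (SE 0.065, adjusted p = 1.00 in limma). Cidec was 0.848 to 2.41 and 1.64 to 5.03, at 0.64 (SE 0.24). Adipoq at 3.10 ± 1.499 and 4.92 ± 2.085 and Cfd at 15.4 ± 6.87 and 25.1 ± 11.4 had higher means in AAV-ChREBP, at log2 differences of 0.52 (SE 0.26) and 0.65 (SE 0.30), each with an adjusted p = 1.00 in limma, and their groups overlapped.

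**Figure D5:**
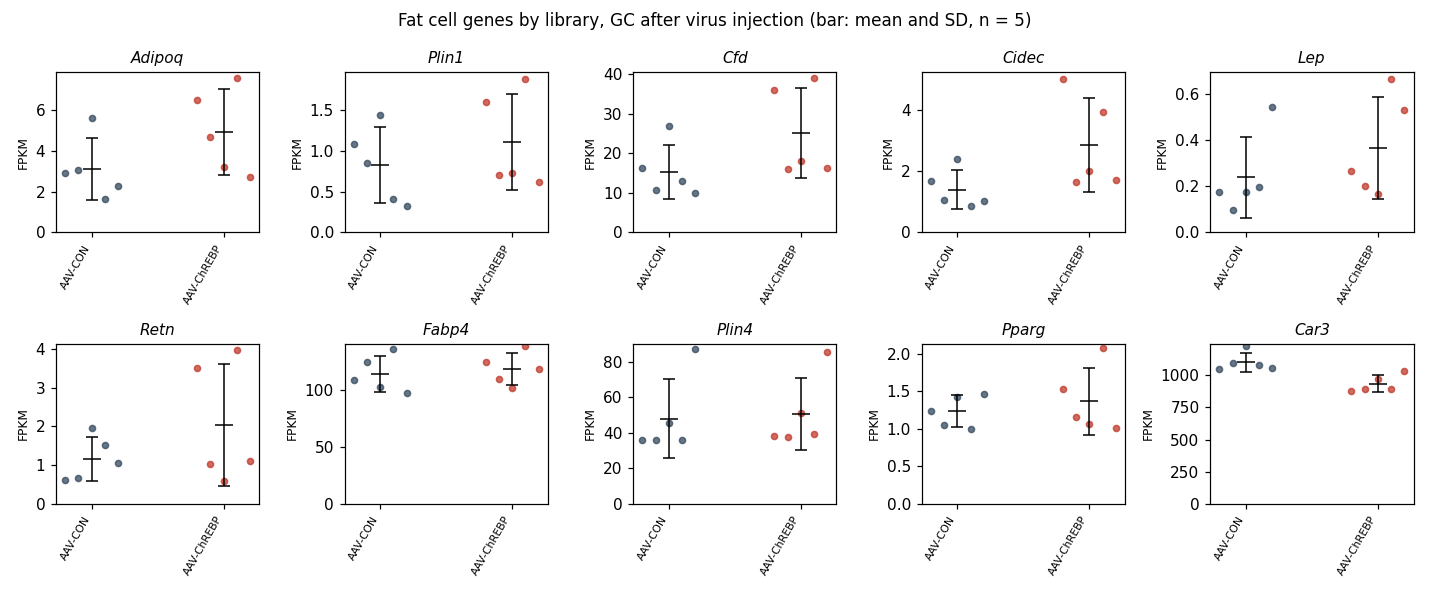
FPKM of the 10 genes in GC of each virus-injected library (points), with mean and SD as bars (n = 5 per group), in AAV-CON (blue) and AAV-ChREBP (red). Car3 is the 1 gene whose groups do not overlap.

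C2C12 is a muscle cell line grown without other cell types, and several of these genes were at or near 0 in it. Lep and Retn were 0 in all 8 libraries and Adipoq was 0 in 7, with 0.06 in the eighth. Pparg was 1.84 ± 0.473 (SD, n = 4) in CON and 1.68 ± 0.1825 in OE, beside 0.394 to 2.97 in the muscle libraries, whose tables were normalized separately. Car3 was 0.97 to 1.27 in CON and 0.70 to 0.94 in OE, a log2 difference of -0.21 (SE 0.07, adjusted p = 0.0451 in limma), where 30.5% of genes were called and 0.384% passed the criterion of the study. The call was lost on leaving out OE library 2, 3 or 4 or CON library 1, 3 or 4, with an adjusted p = 0.0654 to 0.115 in limma.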

How the data were processed

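RNA was isolated by the authors in TRIzol and read on a NovaSeq, and the reads were cleaned in fastp and mapped by HISAT2. The submitters' notes also name fastp 0.18.0, HISAT2 2.1.0, Bowtie2 2.2.8, StringTie 1.3.1 and RSEM. The deposited values are FPKM in all tables; for the virus and C2C12 tables that unit was inferred from the values. Positions in the chow table follow GRCm38. Symbols of the virus table were matched by gene ID (20918 of 21039), and where a symbol repeated, the row with the highest mean was kept. Depth was recovered from the steps of low values, not for C2C12.

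Each comparison was fitted alone with limma 3.58.1 (trend, R 4.3.3) on log2(FPKM + 1), for genes whose mean reached 0.5 FPKM, two-sided, with Benjamini-Hochberg adjustment over all genes tested. Genotype by muscle was fitted with the mouse as a random effect. The fit was also run on simulated data, and the outcome is not given here. The genes and lists were chosen with earlier results of these data known. Genes like the defining markers were ranked by Pearson correlation after group means were removed, and the first 5 per set were named. Of other lists, called genes with large changes were named. After group means were removed, same-numbered virus libraries had correlations of 0.211 to 0.49. Same-numbered GC and SOL libraries on chow had -0.0169 to 0.322 in F/F and 0.021 to 0.0492 in ChMKO. Libraries of unlike numbers were not compared, and no label says what the virus numbers stand for, so pairing was not established. Nothing says whether the libraries of a C2C12 group came from separate cultures, so those p-values measure the spread between libraries. Alternatives were another pseudocount, no filter, rescaling, leaving out each library, blocks, 1 fit per experiment and voom on recovered reads.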

Additional observations from a re-analysis of the deposited data

Results flagged for a closer look

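Of 134 sets of values of 1 member in 1 group, 9 held a library far from the others by Dixon's test, and chance alone gives about 5% of such sets. In Hypo F/F 1 library had the highest Cfd, 24.0 FPKM against 17.5 in the next. In HFrD ChMKO, Plin1 was lowest in 1 library (0.390 against 0.687) and Cfd highest in another (24.1 against 11.4). In HFrD F/F, Retn was highest in 1 library (4.67 against 1.02). Library 8 of the virus experiment had high Plin4 in both groups, 87.0 against 45.3 in AAV-CON and 85.6 against 50.9 in AAV-ChREBP, and the highest Lep in AAV-CON, 0.545 against 0.195. Car3 in AAV-CON was highest in library 4 (1227 against 1091). In C2C12 CON, Adipoq was 0.06 in library 4 and 0 in the others.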

How the results depend on the processing

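The 864 recomputed values were counts of members, which have no sign, and log2 differences of members with an unadjusted p under 0.05. No such difference changed its sign. These members were picked for their difference, and the exact permutation test kept it, so little change of sign was possible. For SOL against GC in F/F, the 5 members past the adjusted p became 3 without the filter on low values, 3 after rescaling, and 9 with all chow groups in 1 fit, with the mouse as a replicate block, and with that block without mouse 69. The share of all genes called moved as well, from 50.4% to 26.8%, 44.1%, 56.8%, 48.9% and 45.8% in that order. The 6 past the criterion of the study became 3 after rescaling, where the genes passing it overall went from 1058 to 955. They became 1 by the exact permutation test, which was run on the members only. In ChMKO, the 6 past the adjusted p became 3 without the filter and 3 in 1 fit (31.2% and 54.1% of all genes, against 57.9%). The block gave 5 (55.6% of all genes). The 1 past the criterion of the study became 2 with a pseudocount of 0.1, while the genes passing it overall went from 1024 to 1720. For HFrD against Norm in ChMKO, the 0 past the criterion of the study became 1 with a pseudocount of 0.1, 2 after rescaling and 1 by voom on recovered reads, while the genes passing it overall went from 543 to 1061, 622 and 1171. For Hypo against Norm in F/F, the 1 became 0 by the exact test. For C2C12, the 1 past the adjusted p became 0 with the replicate block, and the virus comparison stayed at 0 with its replicate block. The genotype by muscle test gave 0 with and without the block. The causes were not tested. Leaving out each library in turn gave 2 to 9 (adjusted p) and 2 to 8 (criterion) for SOL against GC in F/F, 3 to 9 and 1 to 3 in ChMKO, and 0 to 1 by the criterion for the genotype in SOL, in chow GC, in Norm and in Hypo. It gave 0 to 1 and 0 to 2 for Hypo against Norm in F/F, where 0 to 1 and 14 to 32 genes passed in all. By the criterion it gave 0 to 1 for Hypo (75 to 126 genes in all) and for HFrD (509 to 590) against Norm in ChMKO. For C2C12 it gave 0 to 1 by the adjusted p, beside 24.7% to 28.6% of all genes. In SOL against GC in F/F, 9 passed without SOL of mouse 71, beside 51.5% of all genes, and 2 without SOL of mouse 69, beside 44.9%. Reads of single members were recovered in the second set, where depth limits Lep in Hypo, at 1 to 15 reads per library, and Retn, at 12 to 146 over all groups.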
